A study of Mus musculus with 18 samples.

Results

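The weakest accessible sites of the macrophage catalog were the 1234 autosomal summits with a score of 196 or lower, below the next value in the list, 204. They were selected on that score, the number given for each summit in the fifth column of the summit list, and made up 1.49% of the 83038 summits on chromosomes 1 to 19 (84660 summits in all). They lay in 1192 reference peaks and 1112 extended regions. A summit is a local maximum of signal, and a peak can hold several. A reference peak is an accessible interval kept by the authors, and an extended region joins widened neighbouring peaks. Accessibility was measured by ATAC-seq, in which the Tn5 transposase inserts adapters into exposed DNA, in wild type mouse macrophages differentiated from bone marrow in culture (BMDMs). Every culture was given DMSO, the vehicle, for 1 h. One group had no stimulus, and the others received LPS, a bacterial ligand of Toll-like receptor 4, or the cytokine IL-4, at 10 ng/mL for 30 min, 1 h, 2 h or 4 h. Each of the 9 groups had 2 libraries. The lists were pooled over all 18 libraries, so that no value per library, stimulus or time could be given, and whether a weak summit was open in a few libraries or faintly open in all was not tested. The depth is unknown for the same reason. A peak was present at a start site of 20 of 20 genes of a macrophage list, which included the growth factor receptor gene Csf1r and the transcription factor gene Spi1.

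Accessible sites are stretches where nucleosomes are displaced, often by transcription factors. Promoters of active genes are usually strongly accessible, whereas many enhancers are opened only in some cells or after a stimulus. In macrophages, PU.1 keeps lineage enhancers open, LPS activates NF-kB, AP-1 and IRF factors through Toll-like receptor 4, and IL-4 activates STAT6. The elongating polymerase also disturbs nucleosomes within the bodies of highly transcribed genes. CTCF, an architectural protein, binds sites that are usually accessible in most cells.

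The DNA under some of these summits is shown with 50 bases on each side of the summit, on the forward strand of mm10. The first set holds 4 of the members with the lowest score of the list, 102, and is shown to give an impression of the bottom of the catalog. Capitals mark matches to the NF-kB and STAT6 consensus sequences, which overlapped each other and occurred in both copies of a short tandem repeat in an intron of Traf5, the gene of a TNF receptor adaptor. No match to the searched motifs lay in the letters of the other 3 sequences. The member named after Atp6v1g3 was 61322 bp from the nearest start site of that gene. That named after Il1b was 4026 bp from the nearest Il1b start site and 7814 bp from the most upstream.
Atp6v1g3, chr1:138335010-138335110: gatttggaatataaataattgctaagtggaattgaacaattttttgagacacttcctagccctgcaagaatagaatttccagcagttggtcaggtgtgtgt
Traf5, chr1:192057589-192057689: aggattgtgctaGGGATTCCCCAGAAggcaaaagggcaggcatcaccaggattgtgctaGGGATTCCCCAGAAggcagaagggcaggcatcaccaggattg
Il1b, chr2:129363275-129363375: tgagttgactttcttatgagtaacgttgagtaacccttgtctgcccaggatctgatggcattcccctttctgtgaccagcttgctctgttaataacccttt
Ss18l1, chr2:180047752-180047852: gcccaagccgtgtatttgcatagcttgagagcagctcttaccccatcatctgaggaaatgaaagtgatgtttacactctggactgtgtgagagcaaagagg

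The second set holds members with a motif, and capitals mark only the motif each was chosen for. It is shown because the motif content of weak summits is compared with that of stronger ones. The first pair carried the AP-1 motif in introns of Cd101 and Rnf220. The Cd101 letters also hold an unmarked NF-kB match, and those of Arhgap23 and Abr an unmarked SP/KLF match. The next pair carried the NF-kB motif in an intron of Mcu and 8700 bp from the start site of Arhgap23. The Abr and Scaper members held the PU.1/ETS motif on the reverse strand. The Ncoa7 member was 1 of only 5 with a CTCF motif.
Cd101, chr3:101048005-101048105: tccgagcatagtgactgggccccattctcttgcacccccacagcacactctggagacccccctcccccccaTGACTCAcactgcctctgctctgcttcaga
Rnf220, chr4:117330944-117331044: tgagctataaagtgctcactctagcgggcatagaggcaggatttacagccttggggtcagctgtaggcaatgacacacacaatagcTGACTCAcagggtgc
Mcu, chr10:59511810-59511910: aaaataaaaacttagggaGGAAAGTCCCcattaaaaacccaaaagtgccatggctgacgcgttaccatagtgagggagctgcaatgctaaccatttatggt
Arhgap23, chr11:97406783-97406883: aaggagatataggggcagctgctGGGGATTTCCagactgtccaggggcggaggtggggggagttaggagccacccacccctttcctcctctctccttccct
Abr, chr11:76509452-76509552: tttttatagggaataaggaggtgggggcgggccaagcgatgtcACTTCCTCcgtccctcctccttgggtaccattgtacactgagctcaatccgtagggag
Scaper, chr9:55744367-55744467: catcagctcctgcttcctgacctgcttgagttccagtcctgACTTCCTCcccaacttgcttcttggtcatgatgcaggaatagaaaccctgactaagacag
Ncoa7, chr10:30729610-30729710: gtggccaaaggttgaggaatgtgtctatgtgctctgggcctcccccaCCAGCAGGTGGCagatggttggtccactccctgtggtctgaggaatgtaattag

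The third set holds the 2 members whose central 38 bases, marked in capitals, occurred most often in the genome, and was chosen after their values were seen. They are shown because a read trimmed to that length has many equal matches. The member in an intron near Icam4 had 18549 copies of the central 38 bases and 2 of the central 76, the length of a full read. That nearest to Olfr693 had 8511 copies of the 38 bases, whereas its 76 bases occurred once.
Icam4, chr9:21024942-21025042: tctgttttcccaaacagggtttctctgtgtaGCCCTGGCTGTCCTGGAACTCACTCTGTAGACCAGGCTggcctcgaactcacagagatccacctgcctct
Olfr693, chr7:106499236-106499336: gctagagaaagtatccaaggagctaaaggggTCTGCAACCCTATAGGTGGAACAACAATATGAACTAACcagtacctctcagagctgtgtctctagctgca

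The scores that selected the members are given as a description. The lowest was 102 and the highest 196. The median was 167, with quartiles of 147 and 189, against 737 over all autosomal summits. Only 15 distinct values occurred, in steps of 6 to 8, and the number of members was 25 at 102 and 24 at 108, from where it grew to 180 at 196. Just inside the limit were 180 members at 196, and just outside were 178 summits at 204. The first of these in genome order lay near Dst, Creg2, Klf7, Bcl2 and Actr3 inside the limit and near Msc, Dst, Uggt1, Dock10 and Tex44 outside it. Dst, which encodes a cytoskeletal linker, thus had a summit on each side of the limit. The step across the limit was no larger than those among the members, and 358 members (29.0%) had a score of 150 or lower.

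**Figure D1:**
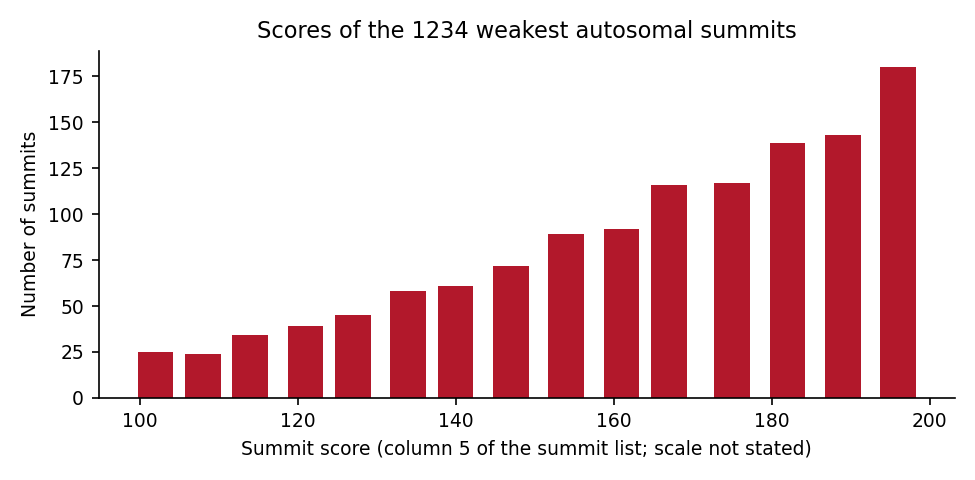
Number of summits (vertical axis) at each score (horizontal axis, scale not stated) among the 1234 weakest autosomal summits. The 15 bars stand for the distinct scores and grow from 25 summits at 102 and 24 at 108 to 180 at 196.

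Members were found on all autosomes. Their share of a chromosome's summits averaged 1.47% ± 0.302 (SD, n = 19 chromosomes) and ranged from 1.01% to 2.17%. Chromosome 11 held the most, with 120, followed by chromosome 2 with 118.

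The position of the members relative to genes was compared next, since it did not enter the selection. Differences between shares are given in percentage points with a 95% Newcombe interval, which covers counting error only, because regions of a pooled list are not replicates. Weak summits lay less often at promoters, defined as positions within 1000 bp of the start site of any annotated transcript. Of the members, 172 (13.9%, 95% Wilson interval 12.1 to 16.0) were at promoters, against 29.4% of the other 81804 autosomal summits (difference -15.5, interval -17.3 to -13.4). The 4176 next weakest summits, scored from 204 to 298, had 17.3% at promoters, and the members were below them too (difference -3.35, interval -5.52 to -1.02). With a score limit of 150 the latter difference was -1.84 and its interval included 0 (-5.31 to 2.33). The share in introns was 41.7%, against 37.2% of the other summits (difference 4.56, interval 1.82 to 7.35). With 1 summit per extended region the difference was 1.88 (interval -1.01 to 4.83), and with a limit of 150 its interval also included 0. The intron share of members did not differ from the next weakest summits beyond counting error (difference -0.79, interval -3.90 to 2.35). Outside protein-coding genes lay 40.4% of the members and 30.95% of the other summits (difference 9.49, interval 6.76 to 12.3). Coding exons held 1.46% of members and 0.883% of the other summits (difference 0.58, interval 0.04 to 1.41), and UTR exons 2.43% and 1.58% (difference 0.85, interval 0.12 to 1.87). Against the next weakest summits both intervals included 0 (coding exons 0.33, -0.32 to 1.21, and UTR exons 0.61, -0.24 to 1.69).

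**Figure D2:**
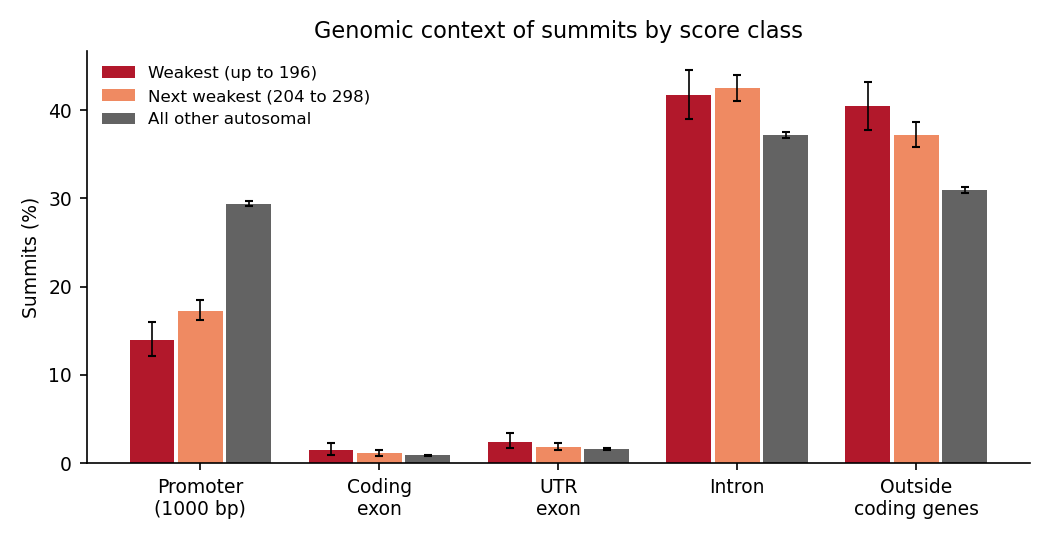
Percentage of summits (vertical axis) in each genomic context for the weakest, the next weakest and all other autosomal summits, with bars for 95% Wilson intervals. The promoter share falls from 29.4% for all other summits to 17.3% and 13.9%, and the share outside coding genes rises from 30.95% to 37.2% and 40.4%.

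The median distance to the nearest protein-coding start site was 10757 bp for the members, 10968 bp for the next weakest and 7110 bp for the other summits. By this median the members were not farther out than the next weakest summits. Within 1000 bp of a protein-coding start site were 132 members (10.7%), and over 100000 bp away were 104 (8.43%, against 6.35% of the other summits, difference 2.08, interval 0.65 to 3.77). The latter share did not differ from that of the next weakest summits beyond counting error (8.41%, difference 0.02, interval -1.65 to 1.89).

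Members at promoters of protein-coding genes are described by score. A start site here is that of any annotated transcript, so it can lie inside the gene, away from the most upstream start. The lowest score was 102. It was held by a summit 973 bp from a start site of Chchd1 and a summit 797 bp from a start site of Sqstm1. Sqstm1 encodes the autophagy receptor p62, and 2 further members lay 483 and 8 bp from a start site of it, with scores of 127 and 134. A member at 108 lay within Mx1, the gene of an interferon-induced antiviral GTPase, 863 bp from a transcript start site. Scores of 114 were found at Ifi205, an interferon-inducible gene, at Dusp1, whose product is a phosphatase of MAP kinases, and at Acsl5, an acyl-CoA synthetase gene. Of these, only the Acsl5 member had no other summit in its extended region. At Foxp1, a transcription factor gene, the member was at 127 and a summit of 1721 lay 627 bp away. The member 11 bp from the start site of Uox, which encodes urate oxidase, scored 121 and was alone. The narrowest peak, of 6 bp, held the member near Phf21a (score 121), whose central bases occurred 4 times in the genome.

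Whether a stronger summit shared the extended region was determined next. A member is weak by selection, so these shares are a description. A stronger summit was present in the region of 684 members (55.4%), 532 (43.1%) were alone, and 18 (1.46%) had companions of which none was stronger. Among the next weakest summits, 47.9% had a stronger summit in the region and 50.3% were alone, and among the other autosomal summits 29.1% and 51.8%. Within the same reference peak, a stronger summit was present for 113 members (9.16%). Most companions thus lay outside the member's own reference peak. Of the members, 463 (37.5%) shared the caller's peak number with another listed summit, so adjoining reference peaks can be pieces of the same called peak. A companion at or above the autosomal median score was present for 441 members (35.7%).

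The distance and score of the companions are given next. The nearest stronger summit of the region was at a median distance of 438.5 bp (interquartile range 319 to 808, range 66 to 2640). The best companion, which could be another summit, was at a median distance of 921 bp (up to 25992 bp). It had a median score of 990. For 147 of the 684 members the strongest summit of the region was at a promoter, for 206 in an intron and for 293 outside coding genes. The highest companions lay near Alcam (2349), an adhesion molecule gene, B4galt1 (2232), a galactosyltransferase gene, Zfp395 (2219), Cbx8 (2206), a Polycomb gene, and Nub1 (2193). The Alcam member was 186 bp from the start site and 872 bp from the summit of 2349.

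**Figure D3:**
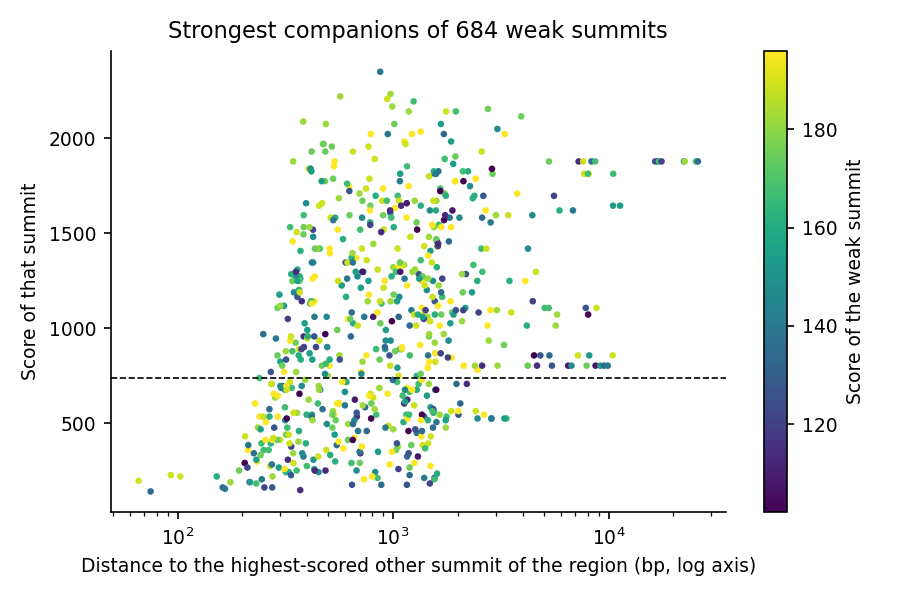
Score of the strongest other summit of the extended region (vertical axis) against its distance in bp (horizontal axis, log scale) for the 684 members with a stronger companion. Colour gives the member's score and the dashed line the autosomal median of 737. The companions' scores spread from 140 to 2349 and most lie beyond 400 bp.

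Some members lay in long, crowded regions. Regions of 5 or more summits held 198 members (16.0%), against 9.77% of the next weakest and 6.12% of the other summits, while 1045 of the 1112 regions held 1 member. Both top regions held 13 members. At chr5:99212439-99241549, over Rasgef1b, a gene for a Ras guanine nucleotide exchange factor, 13 of 59 summits were members, with scores from 114 to 189. Of these, 12 were intronic. The best summit there scored 1877. At chr16:97443028-97456314, over Mx1, 13 of 25 summits were members (scores 108 to 182) and the best summit scored 802. Weak summits thus accounted for 52.0% of the Mx1 region and 22.0% of the Rasgef1b region.

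The next region, chr11:50195612-50209018 over Sqstm1 and Mrnip, had 7 members among 23 summits. Another 10 regions held 4 members each and tie for the next places. Among them were chr2:129362501-129372217 over Il1b, the gene of interleukin 1 beta, with 4 of 20 summits, and chr2:165068455-165077115 over Cd40, a costimulatory receptor gene, with 4 of 16. Others with 4 members, chosen after their values were seen, lay over Tnfaip3 and Nfkbiz, both regulators of NF-kB, Nlrp3, the inflammasome sensor gene, Plek, Lilr4b, Rnf213 and Endov. None of the members in the Rasgef1b, Il1b, Cd40, Tnfaip3, Nfkbiz, Nlrp3, Plek, Lilr4b, Rnf213 and Endov regions had the AP-1, NF-kB or PU.1/ETS motif within 100 bp. Over all members in regions of 5 or more summits the shares were 9.09%, 4.04% and 1.01%, respectively. The Mx1 region held 2 members with an NF-kB motif, and the Sqstm1 region 1 with AP-1 and 1 with PU.1/ETS.

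**Figure D4:**
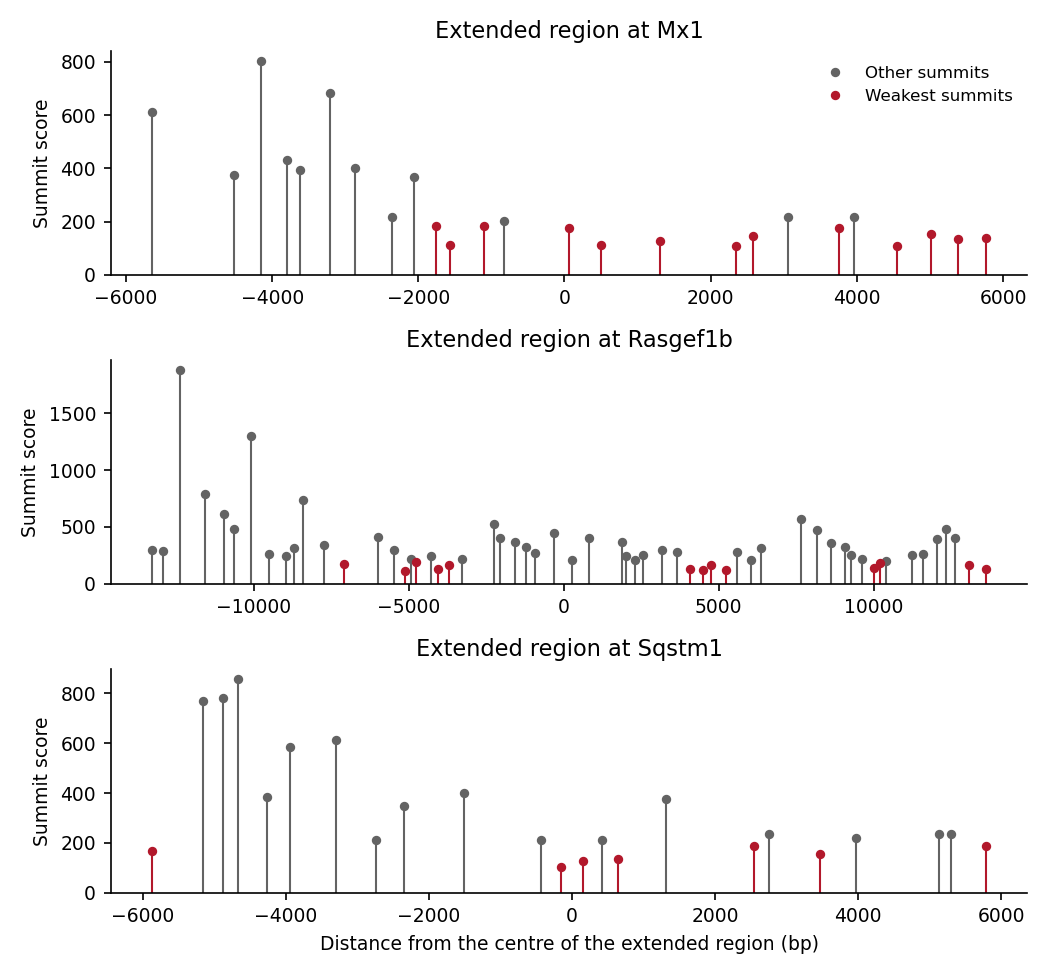
Score of every summit (vertical axis) against its distance in bp from the centre of the extended region (horizontal axis) for the regions at Mx1, Rasgef1b and Sqstm1. Members are in red and other summits in grey. In the Mx1 region 13 of 25 summits are members, most of them on the right of the centre, and the best summit, at 802, is on the left.

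Counted by the nearest protein-coding gene, the members were spread over 959 genes, of which 797 had 1 member. Mx1 and Rasgef1b had 15 each, Rnf213, Sqstm1 and Tmprss2 had 8, Cd44 and Nfkbiz had 7, and Il1b, Nlrp3 and Tnfaip3 had 6. Tmprss2 is a neighbour of Mx1. The 10 lowest members by genome order among the 25 at 102 lay near Atp6v1g3, Traf5, Il1b, Ss18l1, Nfkb1, Abcb4, Slc7a1, Ezh2, Creb5 and 4931417E11Rik. That in an intron of Nfkb1, the NF-kB subunit gene, was 3169 bp from the start site and 650 bp from a summit of 411. The Slc7a1 member, in an intron of an arginine transporter gene, had a companion of 1518.

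Genes of 5 lists were examined for a member within 50000 bp of their most upstream start site. The lists were drawn from general knowledge, but with earlier results of these data known. Of 25 LPS response genes, 18 (72.0%, Wilson interval 52.4 to 85.7) had a member nearby. The count was 4 of 20 for IL-4 response genes (20.0%, 8.07 to 41.6), 5 of 20 for macrophage genes (25.0%, 11.2 to 46.9), 2 of 15 for genes used by all cells (13.3%, 3.74 to 37.9) and 2 of 30 for genes of other tissues (6.67%, 1.85 to 21.3). Among all 20807 autosomal protein-coding genes, 7.46% had one. The windows of the 25 LPS genes held 715 summits, so the members were also expressed as a share of the summits in these windows. That share was 5.17% for LPS genes, 2.04% for IL-4 genes, 1.85% for macrophage genes, 1.17% for all-cell genes, 4.39% for other-tissue genes and 1.24% for all coding genes. Summits near several genes count once for each. The other-tissue value rests on 5 members.

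The 18 LPS genes had 34 distinct members near them. Of these, 26 had a stronger summit in their region, 20 were in regions of 5 or more summits, and 8 were alone. Il1b had 6 members among 40 summits. Tnfaip3 had 5 among 41, and Ccl5, a chemokine gene, had 4 among 39. Acod1, which makes itaconate, had 3 among 51 and Ifit1, an interferon-induced gene, had 3 among 16. Neighbouring genes such as Cxcl1 and Cxcl2 shared their 2 members. No member lay near Tnf (53 summits), Il1a, Cxcl10, Ccl2, Nos2, Irf1 or Marcksl1. Of the 34 members, 2 had the NF-kB motif and 1 the AP-1 motif within 100 bp. Over all members the shares were 9.89% and 25.6%, and over members in regions of 5 or more summits 4.04% and 9.09%, respectively.

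Single members near LPS genes differed in setting. Start site here means the most upstream start site of the gene. The member near Il6 (score 127) was alone in its region, 7737 bp from the start site. That near Ptgs2, which encodes the inducible cyclooxygenase, scored 161 and had a companion of 242 at 328 bp. The member 2235 bp from the start site of Cxcl2 scored 147, held an NF-kB motif and had a companion of 1747. Near Rsad2, an antiviral gene, the members scored 108 and 134, both in an intron. Of the IL-4 genes, Cish and Il4ra had 2 members each and Socs1 and Irf4 had 1 each. Those near Socs1, a feedback inhibitor of cytokine signalling, and Irf4 scored 134 and 147.

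The sequence around the summits also differed between weak and stronger sites. Mean GC content within 100 bp was 46.8% ± 6.61 (SD, n = 1234 regions) for members and 51.8% ± 9.35 for the other summits (difference -5.02, interval -5.39 to -4.64). Against the next weakest summits the GC difference was -0.70 (interval -1.14 to -0.27). More than 50% of the window was masked as repeat in 14.5% of members and 5.98% of the other summits (difference 8.53, interval 6.66 to 10.6), and in 11.8% of the next weakest (difference 2.68, interval 0.56 to 4.96). The latter interval included 0 with limits of 150 and 250, with 1 summit per region and among unique summits, those whose central 38 bases occurred once in the genome. The central 38 bases, the shortest read length that trimming kept, occurred more than once in the genome for 107 members. This was 8.67%, against 2.55% of the other summits (difference 6.12, interval 4.67 to 7.83) and 4.81% of the next weakest (difference 3.86, interval 2.26 to 5.66). The 76 bases of a full read were repeated for 49 members (3.97%, against 1.01%). Of the 107 members, 23 had 2 copies and 12 had more than 100, with a median of 9. The other 1127 members (91.3%) were unique at 38 bases. Among members of 150 or lower the repeated share was 13.1%, and among those above 150 it was 6.85%.

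Both strands were searched for consensus motifs in the 100 bp to either side of each summit. Overlaps between different motifs were allowed. At least 1 of the 12 motifs was present at 62.1% of members and 68.0% of the other summits (difference -5.91, interval -8.67 to -3.23). Against the next weakest summits (64.5%) the interval included 0 (difference -2.39, interval -5.48 to 0.65). The intervals of the 24 motif comparisons were not adjusted for their number. A match is a description of the letters, not of a bound site.

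Of the 12 motifs, AP-1 and NF-kB were more frequent at weak summits than at the other summits. The AP-1 motif (TGANTCA) was present at 25.6% of members, 19.4% of the other summits (difference 6.23, interval 3.86 to 8.76) and 19.5% of all autosomal summits. Outside promoters the shares were 26.4% and 23.6% (difference 2.80, interval 0.22 to 5.55), and at promoters 20.9% and 9.31% (difference 11.6, interval 6.19 to 18.3). From the next weakest promoter summits the AP-1 difference was 4.59 (interval -1.54 to 11.7). With a score limit of 150 the AP-1 difference was 2.33 (interval -1.64 to 6.90). The NF-kB motif was present at 9.89% of members and 5.51% of the other summits (difference 4.37, interval 2.82 to 6.17), with 5.58% of all autosomal summits. Outside promoters the NF-kB difference was 4.67 (interval 2.97 to 6.66). Against the next weakest summits, neither motif differed beyond counting error (AP-1 26.2%, difference -0.57, interval -3.28 to 2.26, and NF-kB 8.52%, difference 1.36, interval -0.42 to 3.33). With the next weakest taken up to a score of 400, both intervals excluded 0 (AP-1 difference 2.54, interval 0.05 to 5.16, and NF-kB difference 2.57, interval 0.95 to 4.42).

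The motifs PU.1/ETS, CTCF, SP/KLF and E-box were less frequent than at the other summits. The PU.1/ETS motif (GAGGAAGT) was present at 3.08% of members, 9.18% of the other summits (difference -6.10, interval -6.96 to -4.97) and 9.09% of all. Outside promoters its difference was -8.06 (interval -8.93 to -6.85), and at promoters the interval included 0 (-0.46, interval -2.75 to 3.81). The PU.1/ETS share was also below that of the next weakest summits (5.34%, difference -2.26, interval -3.36 to -0.97). With a score limit of 150 the latter interval included 0 (difference -1.58, interval -3.13 to 0.90). The CTCF motif was present at 5 members (0.405%), 3.09% of the other summits (difference -2.69, interval -2.95 to -2.13) and 3.05% of all. SP/KLF (GGGCGG) was present at 5.59%, 17.0% and 16.8%, respectively, and its difference of -11.4 (interval -12.5 to -9.91) shrank to -1.71 (interval -2.79 to -0.32) outside promoters. The E-box (CACGTG) was present at 2.92% and 4.83% (difference -1.92, interval -2.73 to -0.81), with 4.81% of all summits. Against the next weakest summits, the intervals of SP/KLF (6.06%, difference -0.47, interval -1.85 to 1.11) and the E-box (3.11%, difference -0.20, interval -1.18 to 1.00) included 0. Outside promoters the interval of the E-box difference included 0 (-0.90, interval -1.77 to 0.31).

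For RUNX (TGTGGTT), C/EBP (TTGCNNAA), IRF (GAAANNGAA), STAT6 and CRE (TGACGTCA) the interval against the other summits included 0, although that of IRF excluded 0 with a score limit of 250, among unique summits and with windows of 50 bp, and that of CRE with a limit of 250. Their shares at members were 7.21%, 12.6%, 9.56%, 6.65% and 0.729%, and over all autosomal summits 7.92%, 11.3%, 8.13%, 6.81% and 0.947%, respectively. Against the next weakest summits, STAT6 was lower at members (difference -1.83, interval -3.37 to -0.10), but the interval included 0 at either other score limit, with either other window size, without chromosome 11 and with the next weakest taken up to 400. Outside promoters, RUNX was less frequent at members than at other summits (difference -2.24, interval -3.66 to -0.52). At promoters, members exceeded the other promoter summits for IRF (24 of 172 members, 14.0%, against 5.73%, difference 8.23, interval 3.82 to 14.2). The same held there for C/EBP (difference 5.64, interval 1.44 to 11.5), STAT6 (difference 4.94, interval 1.43 to 10.2) and RUNX (difference 3.16, interval 0.06 to 8.11). The sign of the RUNX difference thus turned between promoters and other positions. Against the next weakest promoter summits, the intervals of STAT6 (3.49, -0.52 to 8.96) and RUNX (2.16, -1.47 to 7.30) included 0. Those of IRF (6.34, 1.44 to 12.5) and C/EBP (5.73, 1.04 to 11.8) did not.

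The AP-1 and NF-kB shares of members fell with the crowding of the region. Members alone in their region had the AP-1 motif in 33.8% of windows and the NF-kB motif in 14.1%. In regions of 2 to 4 summits the shares were 23.4% and 7.74%, and in regions of 5 or more they were 9.09% and 4.04%. Between members alone and in regions of 5 or more, the difference was 24.7 for AP-1 (interval 18.5 to 30.0) and 10.1 for NF-kB (interval 5.45 to 13.8). Any motif of the list was present at 70.9% and 42.9%, respectively (difference 27.9, interval 19.9 to 35.6). For PU.1/ETS, C/EBP, IRF and SP/KLF the interval included 0 (differences 2.75, 4.20, 3.14 and -0.05, respectively). The next weakest summits had shares in the same order, with AP-1 at 32.3%, 21.5% and 14.0% and NF-kB at 10.6%, 6.96% and 4.17% from isolated to crowded regions. Among all other autosomal summits AP-1 was at 21.6%, 17.4% and 14.0%, whereas NF-kB ran the opposite way, at 5.17%, 5.68% and 7.21%. In regions of 2 to 4 summits, the AP-1 shares of members and other summits outside promoters were 23.5% and 23.3% (difference 0.20, interval -3.67 to 4.56).

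Isolated members also differed from isolated stronger summits. Other summits alone in their region had the AP-1 motif in 21.6% (difference 12.2, interval 8.32 to 16.4) and the NF-kB motif in 5.17% (difference 8.92, interval 6.22 to 12.1). The next weakest isolated summits had NF-kB in 10.6% (difference 3.49, interval 0.45 to 6.94) and AP-1 in 32.3% (difference 1.58, interval -2.81 to 6.15). PU.1/ETS was present at 3.76% of isolated members and 10.6% of other isolated summits (difference -6.80, interval -8.15 to -4.81). In regions of 5 or more summits, the AP-1 share of the members was below that of the others (14.0%, difference -4.94, interval -8.35 to -0.03). Against the next weakest summits of such regions the interval included 0 (difference -4.88, interval -9.81 to 0.81). Crowded regions also had members in introns more often than other summits (43.9% and 29.7%, difference 14.2, interval 7.35 to 21.3). From the next weakest summits there the intron difference was 8.40 (interval 0.16 to 16.7). The 198 members of crowded regions came from only 104 regions, and 12 of the intronic ones lay in the Rasgef1b region. These intervals are therefore too narrow.

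**Figure D5:**
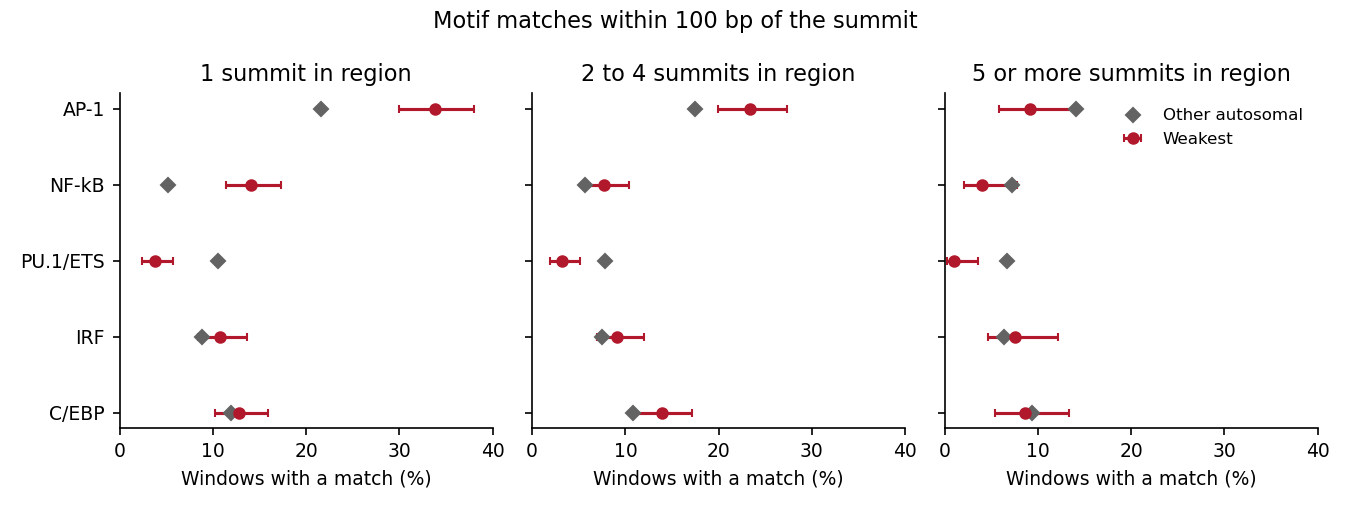
Percentage of windows with a motif (horizontal axis) for members (red, with 95% Wilson intervals) and other autosomal summits (grey diamonds), by the number of summits in the extended region. The AP-1 share of members falls from 33.8% when alone to 9.09% in regions of 5 or more, and is 23.4% in regions of 2 to 4.

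Far from genes, 63 members were alone in their region and over 100000 bp from any protein-coding start site. Taken by score, the first of these were nearest to Tusc1, Pard3, Cox7c, Tmc1 and Gm11146. Their sequence was mixed. The Cox7c member had 76 copies of its central bases and lay wholly in repeats, and the Tusc1 member had 12 copies. The Pard3 member was unique and free of repeats, 123922 bp from the start site.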

How the data were processed

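ATAC-seq libraries of BMDMs (9 groups, 2 libraries each) were sequenced by the authors as single-end reads of 76 bases. Per the study's methods and the submitters' processing notes, reads were trimmed (BBDuk, Trimmomatic 0.39), aligned to mm10 with ShortStack, filtered with SAMtools 1.9 and used for peak calling with MACS2 2.2.6. Duplicate reads were kept, so a summit's height can include PCR copies, and no shift towards the Tn5 cut site was named, so a summit can lie beside the cut.

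The deposited files are 3 BED lists pooled over libraries. The score of each summit is the fifth column as deposited by the authors, and its scale is not stated. Per the study's methods, reference peaks had to pass a q-value limit and overlap between replicates. The weakest members are thus the lowest of a list that was already filtered. All other values used are positions. There were 0 unused columns of per-sample values. Depth, and thus precision per library, could not be derived.

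Contexts came from GENCODE M21, in the order promoter, coding exon, UTR exon, intron. Sequence and repeat masking came from GRCm38.p6, whose primary chromosomes share the coordinates of mm10. Positions count from 1. Shares have 95% Wilson intervals and differences 95% Newcombe intervals (for GC, a normal interval). Regions share loci, so these understate the uncertainty, and no p-value was computed. Functions were tested on simulated data. Python 3.11.15, numpy 2.4.6, pandas 2.3.3 and scipy 1.17.1 were used. The members and the gene and motif lists were chosen with earlier results of these data known.

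The text names the 10 lowest members, the 5 on each side of the limit, members within 1000 bp of a protein-coding start site (up to 25 by score), the 5 regions with the most members, the 5 with the best companion, isolated members over 100000 bp from a start site (up to 10), and members within 50000 bp of a listed gene (up to 25). Ties were broken by genome order. The values of a few genes and of 1 motif that these rules and lists hold are not reported here, although they are counted in the totals. Alternatives comprised other score limits, windows, region definitions and subsets.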

Additional observations from a re-analysis of the deposited data

How the results depend on the processing

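No paired analysis was possible because the lists are pooled over libraries and have no column per library, and no library could be left out. Leaving out the 3 regions with the most members and restricting motifs to summits outside promoters were chosen after seeing the data. At limits of 150 and 250 there were 358 and 3013 members. The promoter share of members was 7.21% and 26.3% with windows of 500 and 2500 bp and 10.7% with protein-coding start sites only. The share with a stronger summit was 58.9% and 51.6% at limits of 150 and 250, 52.0% with 1 summit per region, 9.16% within the reference peak and 35.7% for companions of at least the median score. The share alone was 47.0% at a limit of 250 and 47.8% with 1 summit per region.

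Some intervals came to include 0. These were the intron difference from other summits at a limit of 150 (4.96) and with 1 summit per region (1.88), the promoter difference from the next weakest at 150 (-1.84), and the repeat-masked difference from the next weakest at 150 (2.23), at 250 (1.36), with 1 summit per region (2.195) and among unique summits (1.23). The setting with unique summits gives no value for repeated bases. At a limit of 150 the AP-1 difference from other summits was 2.33 and its interval included 0, as did that of the E-box difference (-1.74) and, against the next weakest, those of PU.1/ETS (-1.58) and CTCF (-0.73).

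With 18 LPS genes near a member at the main limit, 10 remained in number at 150. Macrophage genes numbered 2 at 150 and 9 at 250. At 250 there were 7 IL-4, 5 all-cell and 6 other-tissue genes, and with 20000 bp windows 1 all-cell and 0 other-tissue genes. Against other summits, 2 motifs were more frequent at members, 1 at a limit of 150, and 3 at 250, among unique summits and with 50 bp windows. The number less frequent was 4, with 3 at 150 and 5 at 250. The interval of the IRF difference excluded 0 at 250 (1.00), among unique summits (1.84) and with 50 bp windows (1.29), and that of CRE at 250 (-0.36). Against the next weakest, 0 were more frequent (Newcombe intervals), 1 at limits of 150 and 250, with 1 summit per region, without the 3 regions, with 200 bp windows and outside promoters, and 3 (AP-1, NF-kB and CRE) when the next weakest reached 400. The number less frequent was 3, with 0 at 150 and 2 at 250, without chromosome 11, with 50 and 200 bp windows and when the next weakest reached 400.

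Motif differences whose main interval included 0 changed sign in 22 instances. Against other summits these were RUNX (0.052 at 250, 0.28 with 200 bp windows), C/EBP (-0.98 at 150, -0.50 outside promoters), IRF (-0.25 outside promoters), STAT6 (0.17 at 150, 0.71 at 250, 0.024 without chromosome 11, 0.055 and 0.39 with 50 and 200 bp windows) and CRE (0.17 at 150, 0.36 outside promoters). Against the next weakest they were AP-1 (0.17 at 250, 0.63 with 1 summit per region, 0.39 among unique summits, 2.54 when these reached 400), RUNX (0.21 at 250), C/EBP (-0.89 at 150), IRF (-0.33 outside promoters), SP/KLF (0.069 with 1 summit per region, 0.47 outside promoters) and E-box (0.0045 at 150). The cause of these changes was not tested.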

Other observations

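On chromosome X, which was left out of the member set, 25 of 1578 summits had a score of 196 or lower (1.58%, 95% Wilson interval 1.08 to 2.33), against 1.49% on the autosomes (1.41 to 1.57). On chromosome Y none of 44 summits did. Over all autosomal summits the scores took 219 distinct values.

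Summit names ended in a letter where the peak caller had split a peak. Of the members, 550 (44.6%) had such a name, against 40.3% of the other autosomal summits. For 87 of them no other summit of the same peak number was in the list. Of the members with a sequence repeated at 38 bases, 60 of 107 had a window masked as repeat for more than 50% of its length, and 119 members were mostly masked but unique.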
